A study of Mus musculus with 11 samples.

Results

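The 7 mu-class glutathione transferase genes of the mouse, Gstm1 to Gstm7, and the 2 epoxide hydrolase genes Ephx1 and Ephx2 were followed through poly(A)+ RNA-seq of WT and Atxn7l3-/- mouse embryonic stem cells (mESCs) and embryonic fibroblasts (MEFs). The members were taken by gene name, and all 9 of them are listed in both count tables, among 31518 genes for mESCs and 29450 for MEFs. They were put together because Gstm1, Gstm6 and Ephx1 rose in Atxn7l3-/- mESCs. The mESC contrast therefore chose the group, and its values are given below as a description, with no test. The contrast in MEFs was not used for the choice and was tested.

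ATXN7L3 is an adaptor subunit that the deubiquitylase USP22 needs to remove ubiquitin from histone H2B, and the study asked which transcripts change when it is missing. The series holds 11 libraries of cells on a DBA/2 x C57BL/6 background: 2 WT (Atxn7l3+/+) and 3 Atxn7l3-/- mESC libraries, and 3 WT and 3 Atxn7l3-/- MEF libraries. No treatment was given beyond the culture itself. Every mESC line grew out of a single blastocyst, was kept for 2 passages on feeder cells and then without them, and was grown with LIF, 15% foetal calf serum, 1 µM PD0325901 and 3 µM CH99021. Every MEF culture came from a single E10.5 embryo without its head and gut, grown in 10% foetal calf serum. The allele is a constitutive null made in the germ line, and cells of an Atxn7l3-/- embryo carried it from the start.

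Mu-class glutathione transferases are cytosolic enzymes, active as dimers, that join glutathione to electrophilic compounds and so make them soluble and ready for export. Epoxide hydrolases open reactive epoxides by adding water. EPHX1 sits in the membrane of the endoplasmic reticulum and acts mainly on epoxides that cytochrome P450 enzymes make from foreign compounds, whereas EPHX2 is soluble and acts mainly on epoxides of fatty acids. Genes of both families are classical targets of NRF2, which binds antioxidant response elements, of the aryl hydrocarbon receptor, which binds xenobiotic response elements, and of the nuclear receptor CAR, and they are best known from liver.

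All 7 Gstm genes lie side by side on chromosome 3 (mm10), within 149.1 kb from 107895821 to 108044894. In chromosomal order these are Gstm5, Gstm7, Gstm6, Gstm3, Gstm2, Gstm1 and Gstm4. Gstm5 is read from the plus strand, at 107895821 to 107898686, and the other 6 from the minus strand. Gstm6 lies at 107938847 to 107943749, Gstm2 at 107981702 to 107986453 and Gstm1 at 108012255 to 108017973. Ephx1 lies on the minus strand of chromosome 1, at 180976210 to 181020904, and Ephx2 on the minus strand of chromosome 14, at 66084374 to 66124500. In the GENCODE M21 annotation, the principal transcripts of 6 Gstm genes have 8 exons and 657 coding bases, for 218 residues, and that of Gstm5 has 8 exons and 675 coding bases, for 224 residues. Ephx1 encodes 455 residues and Ephx2 554.

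The start of the 7 Gstm coding sequences shows how alike the members are, which bears on how well reads can be assigned to one of them. Each of the following is 48 aligned coding bases, read from GENCODE transcripts, 5′ to 3′, and capitals mark a base unlike that of most of the 7 genes at that place. The stretch begins at the start codon except in Gstm5, where it begins at coding base 10.
Gstm5: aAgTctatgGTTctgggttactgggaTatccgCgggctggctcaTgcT
Gstm7: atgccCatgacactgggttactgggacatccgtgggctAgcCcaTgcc
Gstm6: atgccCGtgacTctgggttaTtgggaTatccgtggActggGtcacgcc
Gstm3: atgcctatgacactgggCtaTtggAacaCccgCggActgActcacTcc
Gstm2: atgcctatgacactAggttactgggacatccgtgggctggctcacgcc
Gstm1: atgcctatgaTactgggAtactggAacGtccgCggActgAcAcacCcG
Gstm4: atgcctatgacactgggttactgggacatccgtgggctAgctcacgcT
Gstm2 has 1 such base in this stretch, Gstm4 has 2 and Gstm7 has 4, against 7 in Gstm6, 8 in Gstm3, 9 in Gstm5 and 10 in Gstm1.

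Over the whole coding sequence, Gstm1 and Gstm3 were the closest pair, with 89.5% identical aligned bases, and Gstm5 was the most distant member, at 69.1% to 72.3% identity to the other 6. Gstm1 and Gstm2 shared 86.0% of bases and Gstm1 and Gstm6 82.8%. The 2 epoxide hydrolases shared 45.9% of 1202 aligned bases. Of all stretches of 50 bases in the transcripts, 28.8% in Gstm3 and 18.9% in Gstm1 also occurred in the transcripts of another gene, against 5.97% in Gstm6, 5.65% in Gstm2, 1.70% in Ephx1 and 0.532% in Gstm7. With 100 bases these shares were 13.8% for Gstm3 and 5.86% for Gstm1. Gstm4, Gstm5 and Ephx2 shared no stretch of either length. The assignment of reads is therefore least certain for Gstm3 and Gstm1.

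**Figure D1:**
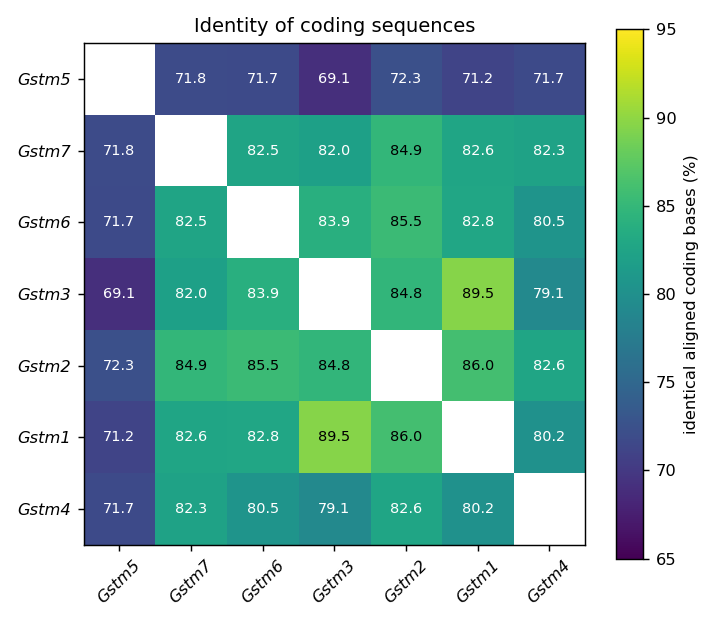
Identity of the Gstm coding sequences, as the percentage of identical aligned coding bases for each pair, with genes in chromosomal order on both axes. Gstm1 and Gstm3 are the closest pair at 89.5%, and the row of Gstm5 stays between 69.1% and 72.3%.

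The oligonucleotides that the study designed to measure 3 of the members by RT-qPCR are shown because they bear on the same similarity, with all bases in lower case.
Ephx1 forward: atgactgggaaggaaccagg
Ephx1 reverse: gacatccgcaagttcgtgtc
Gstm1 forward: ctagtgagtgcccgtgtagc
Gstm1 reverse: tgcctacatgaagagtagccg
Gstm6 forward: ccaacaccggcactccat
Gstm6 reverse: atatgaagaccagccgcttcc
In the annotated transcripts, each oligonucleotide named forward matched the reverse complement, and each one named reverse matched the transcript strand itself. The Gstm1 reverse primer occurred in Gstm3 as well as in Gstm1, and the other 5 occurred in their own gene only.

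Library totals ran from 34515342 to 49602605 counts, so that 3 counts in a library, taken as the lower limit of what can be read, correspond to 0.0605 to 0.0869 CPM, the counts of a gene scaled to a common library size. Atxn7l3 itself was at 196 to 202 CPM in WT mESCs and at 0.831 to 3.34 CPM in Atxn7l3-/- mESCs. In MEFs it was at 86.4 to 117 CPM in WT libraries and at 55.4 to 73.2 CPM in the libraries labelled Atxn7l3-/-, which are lower but far from 0, and every direction given for MEFs rests on these labels. At the protein level, the study reported ATXN7L3 as undetectable in its Atxn7l3-/- mESCs and MEFs. The 6 pluripotency markers found in both tables summed to 3362 to 4061 CPM in mESCs and to at most 99.4 CPM in MEFs. Some markers moved with genotype. Summed over 10 fibroblast genes, WT mESCs had 25.6 and 102 CPM and Atxn7l3-/- mESCs 283 to 412 CPM, against 7625 to 48370 CPM in MEFs. In mESCs, Col1a1, Col1a2, Col3a1, Col6a1, Postn and Lum were higher without overlap in Atxn7l3-/- libraries, and Thy1, Pdgfra, Pdgfrb and Dcn overlapped. Col1a1 alone was at 9.64 to 47.5 CPM in WT and 141 to 189 CPM in Atxn7l3-/- mESCs, and Lum was at most 0.693 CPM. Summed over 9 mesothelial and epithelial genes, WT MEFs had 16.4 to 43.1 CPM and MEFs labelled Atxn7l3-/- 4013 to 5861 CPM. Of these genes, Upk3b, Lrrn4, Msln, Wt1 and Krt18 were higher without overlap in MEFs labelled Atxn7l3-/-, and Cdh1, Epcam, Krt8 and Krt19 overlapped. In mESCs, Ddx3y, a Y-linked gene, had 4217 and 8508 counts in WT libraries and 115, 37 and 8532 counts in Atxn7l3-/- libraries 1, 2 and 3. WT MEF library 3 had 10 counts of Ddx3y and 13777 of Xist, the RNA of the inactive X, and the other MEF libraries had at most 28 of Xist. The part of fibroblast RNA, of mesothelial cells and of sex in the results below was not tested. In bulk RNA, fewer cells of a type and less RNA per cell cannot be told apart.

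In mESCs, 7 of the 9 members had a mean at least 2-fold higher in Atxn7l3-/- than in WT libraries, and for the same 7 every Atxn7l3-/- library lay above both WT libraries. Among all genes, 13.3% of 17800 rose at least 2-fold in the fit and 23.2% of 17309 were higher without overlap. Since the members were chosen from this contrast, nothing is read from their count. The median log2 fold change was 1.70 over the 9 members and 0.04 over all genes tested. Gstm5 and Ephx2 overlapped between genotypes.

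Gstm1, a main mu-class enzyme of liver, was at 30.2 and 37.6 CPM in WT mESCs and at 146, 150 and 105 CPM in Atxn7l3-/- mESCs. Its mean was 33.9 ± 5.24 CPM (SD, n = 2) in WT and 133 ± 25.0 CPM (SD, n = 3) in Atxn7l3-/- libraries, a ratio of 3.93 and a log2 fold change of 2.02. The 3 Atxn7l3-/- libraries lay above every WT mESC library and also above every MEF library, the highest of which had 101 CPM. The lowest of these 3, library 3, is the one whose Ddx3y count was like that of a WT library, although Kdm5d, also Y-linked, had 26 counts there against 310 and 1109 in WT.

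Gstm6, another cytosolic enzyme of the class, was at 4.46 and 5.41 CPM in WT mESCs and at 36.4, 39.2 and 25.5 CPM in Atxn7l3-/- mESCs. The mean rose from 4.93 to 33.7 CPM, a ratio of 6.83 and a log2 fold change of 2.82. MEFs had at most 2.08 CPM of Gstm6 in any library, so that the level in Atxn7l3-/- mESCs, like that of Gstm1, was above that in any culture of fibroblasts measured.

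Ephx1, the membrane-bound hydrolase, was at 57.6 and 44.3 CPM in WT mESCs and at 166, 175 and 209 CPM in Atxn7l3-/- mESCs. The ratio of the means, 51.0 and 184 CPM, was 3.60 and the log2 fold change 1.90. Unlike in the Gstm genes, the highest value came from Atxn7l3-/- library 3. Ephx1 was higher still in MEFs, at 412 CPM or more in every library. The fibroblast marker sum given above was also higher in Atxn7l3-/- than in WT mESCs, and the part of fibroblast RNA in the Ephx1 values was not tested.

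The other members that were higher without overlap belong to the Gstm cluster. Gstm7 was at 0.933 and 0.966 CPM in WT mESCs and at 10.1, 7.70 and 6.87 CPM in Atxn7l3-/- mESCs, the highest ratio of the 9 members (8.67, log2 fold change 3.16). Gstm4 was at 14.8 and 14.0 CPM against 44.3, 46.3 and 36.3 CPM (ratio 2.94, log2 fold change 1.60). Gstm2 was at 13.0 and 11.2 CPM against 32.5, 30.9 and 20.4 CPM (ratio 2.32, log2 fold change 1.26).
For these 3 genes the lowest Atxn7l3-/- library was library 3, as it was for Gstm1 and Gstm6. Gstm3 was low, at 0.685 and 1.75 CPM in WT and 5.05, 4.51 and 1.84 CPM in Atxn7l3-/- mESCs (ratio 3.13, log2 fold change 1.70), and its highest WT library was close to its lowest Atxn7l3-/- library. Its log2 fold change was 1.17 without WT library 1 and 2.49 without WT library 2.

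Gstm5, the most distant member in sequence and the only one on the plus strand, was at 6.25 and 3.76 CPM in WT mESCs and at 10.47, 6.63 and 3.39 CPM in Atxn7l3-/- mESCs. Its genotypes overlapped, with a log2 fold change of 0.49 that was 0.03 without Atxn7l3-/- library 1. Ephx2, the soluble hydrolase, was at 29.6 and 117 CPM in WT mESCs and at 44.2, 29.8 and 39.7 CPM in Atxn7l3-/- mESCs. The 2 WT libraries lay on both sides of the Atxn7l3-/- libraries, and the log2 fold change of -0.88 was 0.39 without WT library 2.

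**Figure D2:**
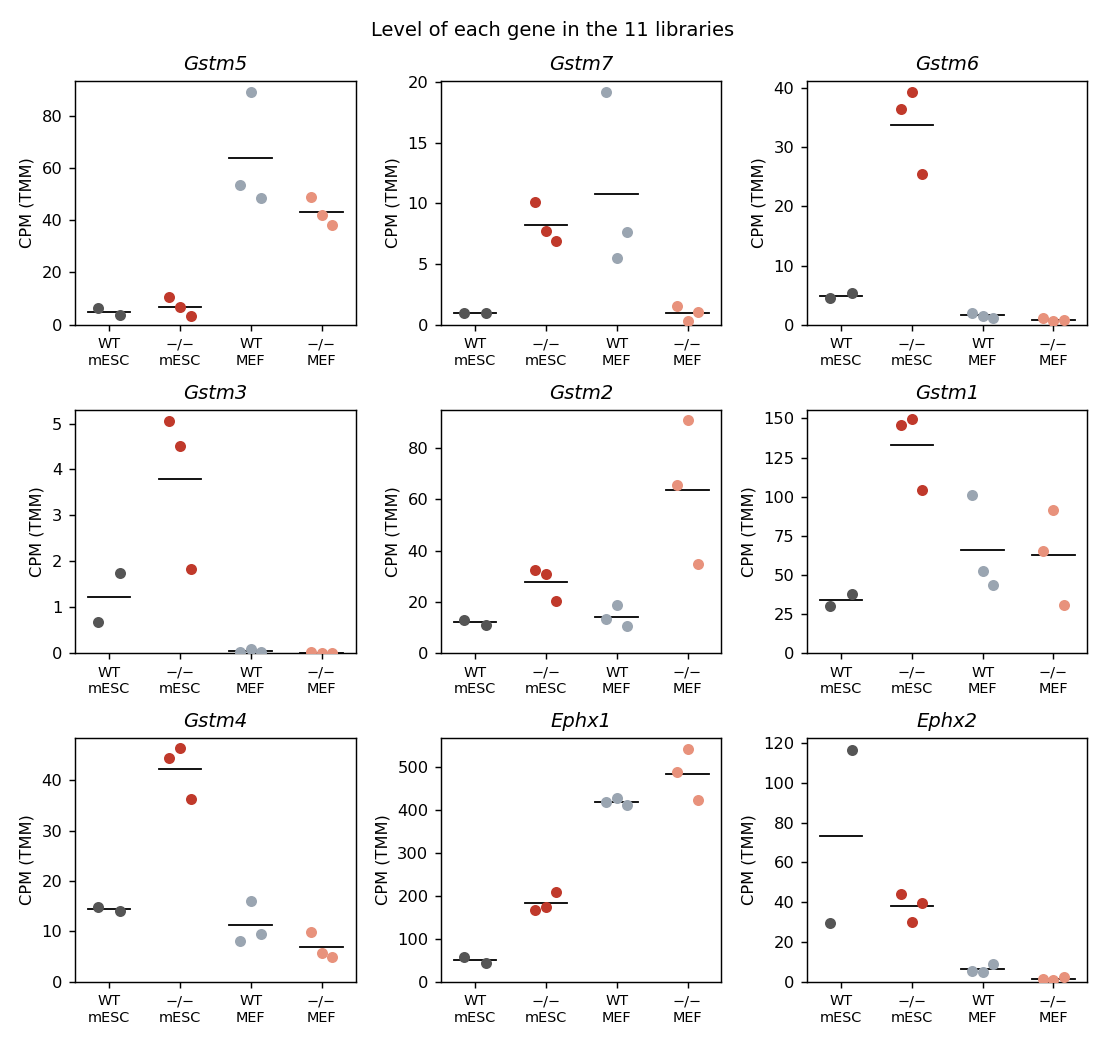
Level of each of the 9 members in CPM (TMM-normalized over the 11 libraries, linear axis from 0) in WT and Atxn7l3-/- mESCs and MEFs, 1 point per library and a line at the group mean. For 7 members, such as Gstm6 (4.46 and 5.41 against 25.5 to 39.2 CPM), all Atxn7l3-/- mESC libraries lie above both WT libraries, whereas in MEFs only Gstm2 has all libraries labelled Atxn7l3-/- above WT.

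In MEFs, 8 of the 9 members passed the filter on low counts, and edgeR's quasi-likelihood test called 1 higher and 1 lower in the libraries labelled Atxn7l3-/-. These were Gstm2, which rose, and Gstm7, which fell. Over all 15958 genes tested, 5.01% were called higher and 4.39% lower. With the replicate number as a block, 1 member was called higher and 2 lower, against 5.50% and 8.49% of all genes. Without overlap between genotypes, 1 member was higher and 3 were lower, where 20.0% and 19.7% of 15777 genes were. The median log2 fold change was -0.66 over the 8 members tested and -0.06 over all genes. Gstm3, with 0 to 3 counts in every MEF library, was not tested.

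Gstm2 was at 13.2, 18.8 and 10.6 CPM in WT MEFs and at 65.5, 90.9 and 34.9 CPM in the libraries labelled Atxn7l3-/-, the lowest of which was above every WT library. The mean rose from 14.2 to 63.8 CPM, with a log2 fold change of 2.15 ± 0.40 (SE; edgeR adjusted p = 0.0288). The adjusted p lay between 8.24e-05 and 0.0914 over 15 alternatives. The call was lost without Atxn7l3-/- library 1 (log2 fold change 2.16, adjusted p = 0.0790) or 2 (1.81, 0.0803) and without WT library 1 (2.11, 0.0719) or 3 (1.99, 0.0914), and the log2 fold change stayed at 1.81 or more in each.

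Gstm7 moved the other way. It was at 19.1, 5.49 and 7.65 CPM in WT MEFs and at 1.56, 0.306 and 1.02 CPM in the libraries labelled Atxn7l3-/-, and the groups did not overlap. The mean fell by 3.51 on the log2 scale (SE 0.79, edgeR adjusted p = 0.0430), from 10.8 to 0.962 CPM. With the block, the log2 fold change was -3.56 (adjusted p = 0.0185). Leaving out any single library ended the call, with log2 fold changes of -4.01 to -2.77 and adjusted p-values of 0.0545 (without WT library 2) to 0.104 (without Atxn7l3-/- library 2). Without Atxn7l3-/- libraries 1 and 3 the adjusted p was 0.0873 and 0.0660, and without WT libraries 1 and 3 it was 0.0810 and 0.0926.

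Ephx2 was at 5.33, 4.93 and 8.69 CPM in WT MEFs and at 1.62, 0.664 and 2.18 CPM in the libraries labelled Atxn7l3-/-. The groups did not overlap, but the log2 fold change of -2.09 ± 0.56 (SE) missed the threshold in edgeR (adjusted p = 0.0623). With the replicate block it passed (log2 fold change -2.20, edgeR adjusted p = 0.0359). Gstm6 was also low in both groups without overlap, at 2.08, 1.53 and 1.22 CPM in WT and 1.19, 0.638 and 0.777 CPM in Atxn7l3-/- MEFs, with a log2 fold change of -0.91 ± 0.46 (SE) that was not called (edgeR adjusted p = 0.215).

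The remaining 4 members tested overlapped between genotypes in MEFs and were not called. Ephx1 was the highest of all, at 420, 428 and 412 CPM in WT and 489, 543 and 423 CPM in Atxn7l3-/- MEFs, and its log2 fold change was 0.19 ± 0.20 (SE; edgeR adjusted p = 0.532). Gstm1 was at 101, 52.6 and 43.7 CPM against 65.2, 91.2 and 31.0 CPM (log2 fold change -0.10 ± 0.47, edgeR adjusted p = 0.895). The spread of Gstm1 within either MEF group was thus larger than the difference between them. Gstm5 was at 53.4, 88.9 and 48.5 CPM against 49.0, 41.8 and 38.3 CPM (log2 fold change -0.58, edgeR adjusted p = 0.187), and Gstm4 at 8.14, 16.0 and 9.52 CPM against 9.78, 5.74 and 4.96 CPM (-0.73, edgeR adjusted p = 0.260).

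**Figure D3:**
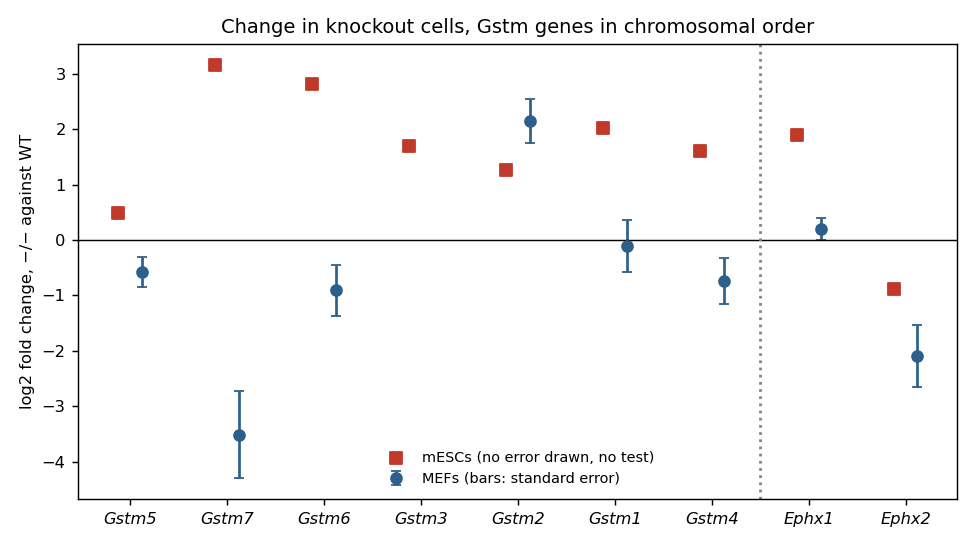
Log2 fold change of Atxn7l3-/- against WT for each member, with the Gstm genes in chromosomal order and the 2 hydrolases to the right of the dotted line. Squares are mESCs, without error bars because that contrast chose the members, and circles are MEFs with standard errors. Gstm2 is above 1 in both cell types (1.26 and 2.15), and Gstm7 is at 3.16 in mESCs and at -3.51 in MEFs.

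Both cell types were also set side by side, from counts normalized together but taken from separate tables, as a description only. In WT cells, every MEF library was above both mESC libraries for Gstm1, Gstm5, Gstm7 and Ephx1, with ratios of the means of 1.94, 12.7, 11.3 and 8.24. MEFs were below mESCs in every library for Gstm3, Gstm6 and Ephx2, the last by a ratio of 11.6, and Gstm2 and Gstm4 overlapped. Of all 18789 genes compared, 34.7% were higher and 38.4% lower in WT MEFs without overlap, 73.1% together.
In Atxn7l3-/- cells no member overlapped, where 68.7% of all genes did not. Gstm2, Gstm5 and Ephx1 were higher in MEFs and the other 6 were lower, where 32.3% and 36.4% of all genes were. Gstm1 and Gstm7 thus stood on opposite sides in the 2 genotypes, with Gstm1 at 133 CPM in Atxn7l3-/- mESCs against 62.5 CPM in the MEFs, and Gstm7 at 8.23 against 0.962 CPM. Gstm6 reached a ratio of 38.8 between Atxn7l3-/- mESCs and MEFs.

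Per kb of transcript, which allows levels of different genes to be compared, Ephx1 led in WT mESCs (41.8 CPM per kb), in WT MEFs (344 CPM per kb) and in Atxn7l3-/- MEFs (397 CPM per kb). In Atxn7l3-/- mESCs Gstm1 had the highest mean, at 156 ± 29.2 CPM per kb (SD, n = 3), but its libraries overlapped those of Ephx1 at 150 ± 18.6 CPM per kb. In WT mESCs the first 3 places, Ephx1, Gstm1 and Ephx2, overlapped their neighbours, and in Atxn7l3-/- mESCs Gstm6, Gstm2 and Gstm4 did, at 35.7, 35.4 and 28.9 CPM per kb. In both MEF groups Ephx1 stood clear of the second gene, which was Gstm1 in WT (76.8 CPM per kb) and Gstm2 in Atxn7l3-/- MEFs (80.7 CPM per kb). Gstm1 and Gstm5 overlapped in WT MEFs, at 76.8 and 75.8 CPM per kb, as did Gstm2 and Gstm1 in Atxn7l3-/- MEFs. Gstm3 had the lowest mean in every group, although in WT mESCs, at 0.928 CPM per kb, it overlapped Gstm7 at 1.28 CPM per kb.

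The sum of the 7 Gstm genes per kb was 75.8 and 80.5 CPM per kb in WT mESCs and 214 to 310 CPM per kb in Atxn7l3-/- mESCs. In MEFs the sums overlapped, at 140 to 232 CPM per kb in WT and 132 to 276 CPM per kb in Atxn7l3-/- libraries. The make-up of that sum differed more than the sum in MEFs. Gstm2 took 7.21% to 11.3% of it in WT and 33.5% to 41.6% in Atxn7l3-/- MEFs, and Gstm7 3.50% to 11.1% in WT and 0.149% to 1.04% in Atxn7l3-/- MEFs. Gstm5 took 27.5% to 50.1% in WT MEFs and 18.0% to 34.7% in Atxn7l3-/- MEFs, which overlap. In mESCs, Gstm1 took 46.6% to 54.6% in WT and 54.9% to 57.0% in Atxn7l3-/- libraries, and Gstm6 6.23% to 7.11% and 12.4% to 13.4%.

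**Figure D4:**
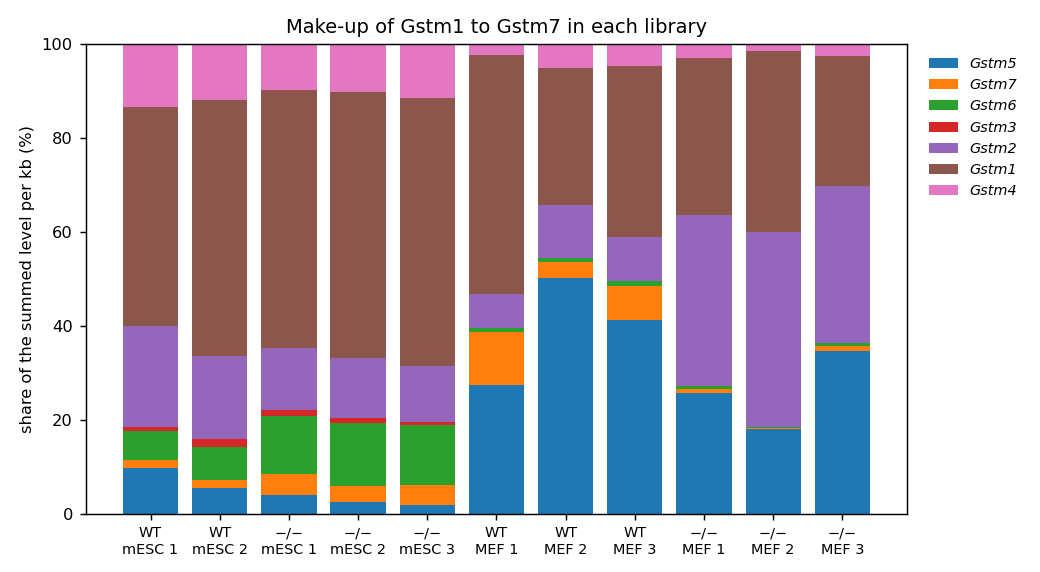
Share of each Gstm gene in the summed level per kb of Gstm1 to Gstm7, in percent, with 1 stacked bar for each of the 11 libraries. Gstm2 grows from at most 11.3% in WT MEFs to at least 33.5% in Atxn7l3-/- MEFs, and Gstm6 from at most 7.11% in WT mESCs to at least 12.4% in Atxn7l3-/- mESCs.

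The promoters of the members were searched for 3 motifs on both strands, in RefSeq windows of 250 bases before and 50 after a start site (GRCm38.p6). These were TGACNNNGC, the core of the antioxidant response element, GCGTG, the core of the xenobiotic response element, and TATAAA. Windows were listed for 8 members, all but Ephx2, and there were 13 of them, since some genes have several starts. TGACNNNGC was found in 2 windows, of Gstm5 and Gstm7, GCGTG in 3 windows, of Gstm1 and Gstm5, and TATAAA in 4 windows, of Ephx1, Gstm1, Gstm5 and Gstm7. The Gstm1 windows overlap, and the GCGTG found in them is the same site, counted once for each window. Among all 32851 promoter windows, 12.4% held TGACNNNGC, 32.4% GCGTG and 13.6% TATAAA.

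A promoter of Gstm1 is shown because Gstm1 was among the members higher in Atxn7l3-/- mESCs, and that of Gstm5 because Gstm5 lay in the same cluster and overlapped between genotypes. Both end at the base before the gene's start in GENCODE M21 and are written in the direction of transcription, with capitals for TGACNNNGC and for GCGTG or its reverse complement CACGC. The last of the Gstm5 matches overlaps its TGACNNNGC.
Gstm1, chr3:108017974-108018223, minus strand: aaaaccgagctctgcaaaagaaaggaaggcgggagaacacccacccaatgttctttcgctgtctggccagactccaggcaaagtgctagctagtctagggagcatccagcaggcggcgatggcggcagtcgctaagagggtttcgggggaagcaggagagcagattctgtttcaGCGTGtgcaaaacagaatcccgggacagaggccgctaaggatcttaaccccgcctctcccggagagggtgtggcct
Gstm5, chr3:107895604-107895820, plus strand: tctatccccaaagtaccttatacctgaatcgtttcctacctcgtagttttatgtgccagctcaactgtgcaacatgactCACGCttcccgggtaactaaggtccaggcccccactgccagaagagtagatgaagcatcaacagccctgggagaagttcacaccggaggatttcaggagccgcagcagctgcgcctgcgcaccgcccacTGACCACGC
The windows of Gstm2, Gstm3, Gstm4 and Gstm6 held none of the 3 motifs, which says only that these letters are not in these windows.

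Genes beside the members were tested in both cell types, as they were not part of the rule. They were the 10 nearest genes tested on each side of the Gstm cluster, the 1 other gene inside it, and 5 on each side of Ephx1 and of Ephx2, 41 in all. In mESCs, 2 of the 41 rose and 3 fell, where 3.08% of all genes rose and 3.88% fell. Sort1, which encodes the sorting receptor sortilin and lies 239 kb beyond the cluster, rose with a log2 fold change of 1.44 ± 0.21 (SE; edgeR adjusted p = 0.0217), and Psrc1, a mitotic spindle gene 339 kb beyond it, with 1.04 ± 0.22 (SE; edgeR adjusted p = 0.0372). Lrif1, 1159 kb before the cluster, fell by 3.46 on the log2 scale, and beyond Ephx2, Trim35 (log2 fold change -1.07) and Pnma2 (-3.01) fell (edgeR adjusted p = 0.0388 to 0.0496 for these 3). The 5 calls were absent without Atxn7l3-/- library 1, WT library 1 or WT library 2. Without Atxn7l3-/- library 3, 2 were called lower, and without Atxn7l3-/- library 2, 3 were called higher.
The genes nearest to the Gstm cluster were not called in either cell type. Ampd2, 29.2 kb away, was not called at 0.34 on the log2 scale in mESCs (edgeR adjusted p = 0.257) nor at -0.54 in MEFs (edgeR adjusted p = 0.159). Gm5075, 27.2 kb away on the other side, was at 1.58 in mESCs (edgeR adjusted p = 0.148) and -1.09 in MEFs (edgeR adjusted p = 0.358). Its mean was at most 0.634 CPM in any group. For 4933431E20Rik, the gene counted as inside the cluster, the values were 0.20 (edgeR adjusted p = 0.874) and -0.69 (edgeR adjusted p = 0.205).

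In MEFs, 2 of 41 neighbours rose in edgeR's test and no neighbour was called lower, where 5.01% of all genes were called higher and 4.39% lower. The count called higher is close to that share, and nothing is read from it. At an unadjusted p under 0.05, 3 neighbours were lower, and 1 was called lower in DESeq2. Among all 15958 genes, 5166 had an unadjusted p under 0.05 in either direction. The share of all genes called in DESeq2 was not determined. With the replicate block 4 were called higher and 2 lower, where 5.50% and 8.49% of all genes were. The added ones were Slc16a4 (edgeR adjusted p = 0.0221), Ptk2b (0.0384), Clu (0.0416) and Scara3 (0.0412), named after their values were seen. Tmem63a, an ion channel gene that ends 1.1 kb from Ephx1, rose from 80.8 to 187 CPM (log2 fold change 1.20 ± 0.20, SE; edgeR adjusted p = 0.0219), while Ephx1 was not called. Csf1, the macrophage growth factor gene 135 kb before the Gstm cluster, rose from 475 to 1303 CPM (log2 fold change 1.44 ± 0.27, SE; edgeR adjusted p = 0.0300). The summed level of 4 macrophage markers was 462 to 925 CPM in WT MEFs and 799 to 5841 CPM in Atxn7l3-/- MEFs, and its part in these values was not tested. Of the 4 markers only Lyz2 was higher without overlap (350 to 674 CPM in WT, 718 to 5384 CPM in Atxn7l3-/- MEFs), and Csf1r, Mrc1 and Cd68 overlapped. Both calls were absent without Atxn7l3-/- library 1 or 2 and without WT library 1 or 3. Without Atxn7l3-/- library 3 there were 3 calls upwards and 1 downwards.

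The wider pathway was followed through 85 genes in 5 lists: other glutathione transferases, epoxide-forming and related genes, glutathione supply, glutathione use, and regulators of the response with their common targets. In mESCs 77 of them were tested, and 3 rose and 3 fell, where 3.08% and 3.88% of all genes did. Both counts are close to those shares, and nothing is read from them. The genes that rose were Gstt2, a theta-class glutathione transferase (4.68 to 14.8 CPM, log2 fold change 1.71, edgeR adjusted p = 0.0452), Gss, glutathione synthetase (64.7 to 139 CPM, 1.15, edgeR adjusted p = 0.0322), and Hagh, which encodes glyoxalase II (23.0 to 48.9 CPM, 1.14, edgeR adjusted p = 0.0499). All 3 that fell encode cytochrome P450 enzymes. The other P450 genes tested, Cyp1b1, Cyp2c44 and Cyp2j6, are named after their values were seen. None of these was called (edgeR adjusted p = 0.0688 to 0.735).
Cyp1a1, the best known target of the aryl hydrocarbon receptor, fell from 27.3 to 3.45 CPM (log2 fold change -2.95 ± 0.52, SE; edgeR adjusted p = 0.0287). Cyp2s1 fell from 29.9 to 8.01 CPM (log2 fold change -1.85, edgeR adjusted p = 0.0286). Cyp2j9 was low in both groups, with 0.343 CPM in WT and 0.0228 CPM in Atxn7l3-/- mESCs (edgeR adjusted p = 0.0436). The Atxn7l3-/- mean of Cyp2j9 was below the limit of 3 counts.

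By list in mESCs, 1 of 16 other glutathione transferases, 1 of 17 supply genes and 1 of 22 genes of glutathione use rose, and 3 of 13 epoxide-related genes fell. The median log2 fold change was 0.64 over the other transferases, -0.53 over the epoxide-related genes, 0.14 over the supply genes, 0.45 over the genes of glutathione use, -0.93 over the regulators and targets and 0.17 over all 77. None of the 9 regulators and targets was called in edgeR, with 4 lower at an unadjusted p under 0.05 and 2 lower in DESeq2. Among all 17800 genes, 5309 had an unadjusted p under 0.05 in either direction. The share of all genes called in DESeq2 was not determined, and nothing is read from these counts. Of these 9, Keap1 (-0.98), Hmox1 (-1.16), Bach1 (-0.93) and Nr1i3 (-2.10) were lower without overlap, Nr1i2 (0.50) was higher without overlap, and Srxn1 (-1.40), Txnrd1 (-0.27), Nfe2l2 (-0.20), which encodes NRF2, and Nqo1 (0.08) overlapped, all given as log2 fold changes. Since none was called, the list is named in full after its values were seen. The calls upwards were 5 without Atxn7l3-/- library 2 and 6 without library 3. No call in either direction was left without Atxn7l3-/- library 1, WT library 1 or WT library 2, and 8 were called lower without Atxn7l3-/- library 2.

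In MEFs, 69 of the 85 genes were tested, and 10 rose and 4 fell, where 5.01% and 4.39% of all genes did. The largest rise of the list was that of Cyp2s1, which had 0.531 ± 0.172 CPM (SD, n = 3) in WT MEFs and 164 ± 45.9 CPM (SD, n = 3) in MEFs labelled Atxn7l3-/-, with a log2 fold change of 8.26 ± 0.41 (SE; edgeR adjusted p = 0.000903). The same gene had fallen in mESCs. Mgst1, a membrane-bound glutathione transferase, rose from 54.5 to 578 CPM (log2 fold change 3.38 ± 0.42, SE; edgeR adjusted p = 0.0117).
Oplah, the 5-oxoprolinase of the glutathione cycle, rose by 3.25 on the log2 scale, Gsto2, an omega-class transferase, by 3.19, Mgst2 by 2.67 and Ggct, which forms 5-oxoproline, by 2.09. With the replicate block 10 were again called higher, but Mgst2 was lost (edgeR adjusted p = 0.0540) and Gsta3, an alpha-class transferase named after its values were seen, was gained (log2 fold change 4.35, edgeR adjusted p = 0.0981 without and 0.0111 with the block). The other 4 that rose without the block lie past the limit of 6 names per direction and are named after their values were seen. They are Ahr, the aryl hydrocarbon receptor gene (1.99), Hmox1 (1.53), Srxn1 (1.30) and Gsr, glutathione reductase (1.06).

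The genes that fell in MEFs were Gstt1, a theta-class transferase (22.4 to 2.25 CPM, log2 fold change -3.32, edgeR adjusted p = 0.0456), Ptges, a prostaglandin E synthase (28.0 to 3.13 CPM, -3.17, edgeR adjusted p = 0.0307), Cyp2c44, a P450 that makes fatty acid epoxides (1.06 to 0.131 CPM, -3.02, edgeR adjusted p = 0.0378), and Gpx3, the secreted glutathione peroxidase (58.5 to 8.69 CPM, -2.76, edgeR adjusted p = 0.0481). By list, 3 of 15 other transferases rose and 1 fell, 2 of 11 epoxide-related genes rose and 1 fell, 3 of 16 supply genes rose, 2 of 20 genes of glutathione use fell and 2 of 7 regulators and targets rose. The mesothelial and epithelial marker sum and Gata6 (4.48 to 12.2 CPM in WT, 171 to 381 CPM in Atxn7l3-/- MEFs) moved with the same libraries. Gata6 belongs to a list of 10 liver and visceral endoderm markers. In that list Gata4 was also higher without overlap, and Alb, Afp, Ttr, Apoa1, Apob, Hnf4a, Foxa2 and Sox17 overlapped. Alb ran from 0.1705 to 322.5 CPM in WT and from 0.0511 to 5.50 CPM in Atxn7l3-/- MEFs. The part of all these markers in the pathway values was not tested. Of the 4 that fell, Gstt1 and Ptges were called with the replicate block, and Cyp2c44 (edgeR adjusted p = 0.0519) and Gpx3 (edgeR adjusted p = 0.0533) were not. Calls upwards were 4 without Atxn7l3-/- library 1, 5 without library 2, 4 without WT library 1, 6 without WT library 2 and 2 without WT library 3. Calls downwards were lost without Atxn7l3-/- library 1 or 2 or WT library 2, and 1 was left without WT library 1 or 3.

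**Figure D5:**
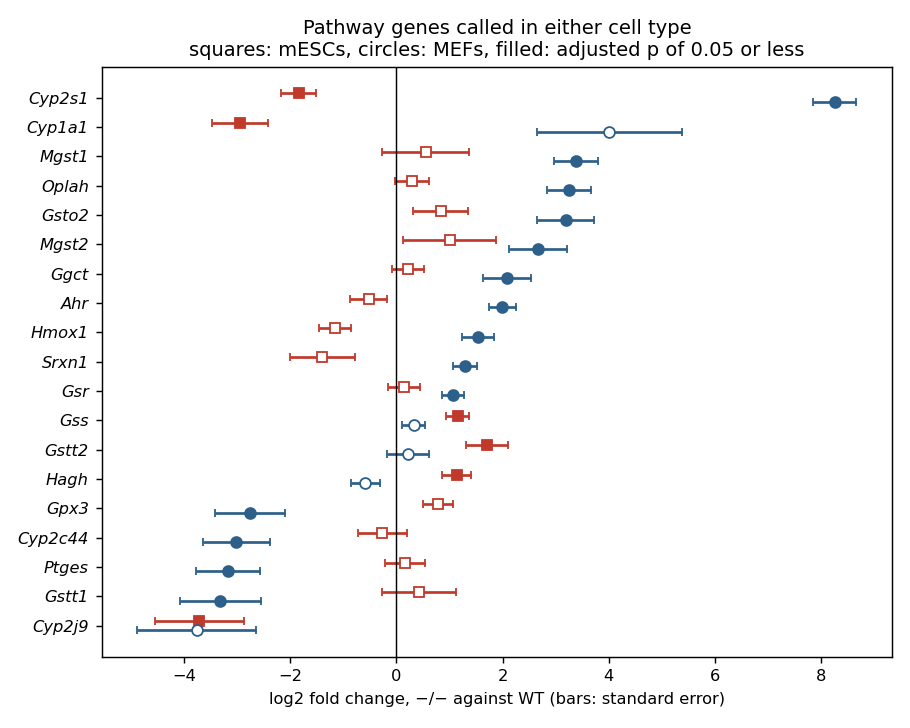
Log2 fold change of Atxn7l3-/- against WT, with standard errors, for the pathway genes called in either cell type, ordered by the value in MEFs. Squares are mESCs, circles are MEFs and filled symbols passed an adjusted p of 0.05. Cyp2s1 lies at -1.85 in mESCs and at 8.26 in MEFs.

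Over the 11 libraries, the genes whose log2 CPM followed Gstm1 most closely were N4bp2l1 (Pearson r = 0.873), Zmynd15 (0.861) and Shpk (0.854), all 3 low to moderate in level, such as Shpk at 7.08 CPM in WT and 25.8 CPM in Atxn7l3-/- mESCs. Gstm6 was followed by St8sia5 (0.982), the gene 2310015K22Rik (0.982) and Mir1968 (0.981), which had at most 1.08 CPM in any group. Ephx1 was followed by Rgl3 (0.981), Spata6 (0.980) and Saraf (0.977). These were the highest of 18789 genes, the 11 points share cell type and genotype, and the values are a description.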

How the data were processed

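RNA-seq libraries were prepared from poly(A)+ RNA with a stranded kit, and the submitters' processing notes name bcl2fastq 2.17.1.14, cutadapt 1.10, STAR 2.5.3a, HTSeq 0.6.1p1, DESeq2 1.16.1 and mm10. The annotation, the strand setting and the treatment of reads with several hits were not given in the sources used here. The authors deposited raw counts per gene and, from them, a normalized signal, which is the count divided by a size factor, and the same signal per kb of median transcript length. The deposited fold changes and p-values were not used. One further WT mESC dataset that the authors excluded was not analysed here.

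Raw counts were tested with edgeR 4.0.16 (R 4.3.3; filterByExpr, TMM, quasi-likelihood test, Benjamini-Hochberg over all 17800 genes in mESCs and 15958 in MEFs), separately by cell type, with a threshold of adjusted p of 0.05. Levels are CPM after TMM over the 11 libraries. Coding sequences and positions came from GENCODE M21, alignments from MAFFT 7.526 and promoters from RefSeq. The authors' signal per kb was used only to see that 9 members in mESCs and 8 in MEFs exceeded 10, the study's limit for expressed genes. The members, the gene lists and the tests were chosen with earlier results of these data known.

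The text names all members, in each cell type and direction at most 6 pathway genes called, at most 6 neighbours called by absolute log2 fold change, and the 3 genes most like Gstm1, Gstm6 and Ephx1. The 7 neighbours called are all given, and genes named in addition are marked as such or, for Ampd2, Gm5075 and 4933431E20Rik, were added after their values were seen. As alternatives, scaling by RLE or by the upper quartile was used, the filter was dropped or set to 10 counts in every library, and the others were DESeq2 1.42.0, the replicate number as a block, 1 fit of all 11 libraries, GC correction (lowess span 0.3) without and with the block, the study's 2-fold limit and leaving out each library. The fits were tested on simulated data. Same-numbered MEF libraries deviated together (r = 0.473, 0.161 and 0.240), so block results are given there beside the others where they differ. The numbers come from the labels, and each line is a different animal. P-values measure the spread between these libraries.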

Additional observations from a re-analysis of the deposited data

Results flagged for a closer look

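Gstm7 and Gstm6 stood out because all libraries moved in opposite directions in the 2 cell types. Gstm7 was higher in all 3 Atxn7l3-/- mESC libraries (6.87 to 10.1 CPM) than in the WT ones (0.933 and 0.966 CPM), and lower in all 3 MEF libraries labelled Atxn7l3-/- (0.306 to 1.56 CPM) than in the WT ones (5.49 to 19.1 CPM). Its log2 fold change in MEFs minus that in mESCs was -6.68. Gstm6 was higher in all Atxn7l3-/- mESC libraries (25.5 to 39.2 CPM against 4.46 and 5.41 CPM) and lower in all MEF libraries labelled Atxn7l3-/- (0.638 to 1.19 CPM against 1.22 to 2.08 CPM), with a difference of -3.73. In MEFs the Gstm6 groups nearly met, at 1.19 and 1.22 CPM, and the gene was not called (edgeR adjusted p = 0.215). Neither difference was tested, because the mESC contrast chose the members. Among all genes, 23.2% were higher without overlap in mESCs and 19.7% lower without overlap in MEFs. The share of all genes that did both was not determined.

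The same was seen for 4 of the pathway genes and neighbours that were called in at least 1 cell type. How many of all genes moved in opposite directions without overlap was not determined, so nothing is read from this count. Cyp2s1 was at -1.85 in mESCs and 8.26 in MEFs on the log2 scale, a difference of 10.1. Hmox1 was at -1.16 and 1.53, a difference of 2.69, and was not called in mESCs (edgeR adjusted p = 0.0581). Gpx3 was at 0.78 and -2.76, a difference of -3.54, and was not called in mESCs (edgeR adjusted p = 0.115). Trim35, beside Ephx2, had a difference of 1.29 and was not called in MEFs (edgeR adjusted p = 0.429). The mESC and MEF libraries of each of the 4 moved without overlap in opposite directions, and these differences were not tested.
Bach1 (-0.93 in mESCs and 0.63 in MEFs) and Slc3a2 (0.65 and -0.53) also moved in opposite directions without overlap, but were called in neither cell type.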

How the results depend on the processing

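The number of members at least 2-fold higher in Atxn7l3-/- mESCs was 7 under all 14 alternatives. These reuse the libraries of the contrast that chose the members, so nothing is read from this. In MEFs, the 1 member called higher was 0 to 1 with single libraries left out, and the 1 called lower was 2 with DESeq2, the replicate block, 1 fit of all libraries and GC correction with the block, 0 with GC correction alone (Gstm7 just over an adjusted p of 0.05) and 0 with any library left out. Ephx2 in MEFs passed in the 4 fits with 2 calls, and the block changed no other call of a member. Of the pathway genes in mESCs, the 3 higher were 1 with 10 counts in every library, 6 with DESeq2, 7 with the replicate block, 1 in the fit of all libraries, 5 with GC correction and the block, and 0 to 6 with a library left out. The 3 lower were 11 without a filter, 9 with DESeq2 and 0 to 8 with a library left out. In MEFs, the 10 higher were 11 without a filter, 9 with 10 counts in every library, 15 with DESeq2 and 14 in the fit of all libraries. They were 7 with GC correction and the block, and 2 to 13 with a library left out. The 4 lower were 2 with 10 counts in every library, 9 with DESeq2, 2 with the replicate block, 9 in the fit of all libraries, 2 with GC correction, 1 with GC correction and the block, and 0 to 6 with a library left out. Of the neighbours in mESCs, the 2 higher were 4 with DESeq2, 1 with the replicate block, 1 in the fit of all libraries, 1 with GC correction and the block, and 0 to 3 with a library left out, and the 3 lower were 0 to 3. In MEFs, the 2 higher were 4 without a filter, 6 with DESeq2, 4 with the replicate block, 6 in the fit of all libraries and 0 to 3 with a library left out. The count of lower ones, 0 in edgeR, was 1 without a filter, 1 with DESeq2, 2 with the replicate block, 1 in the fit of all libraries and 0 to 1 with a library left out. The cause was not tested, beyond the fewer libraries where one was left out. With 1 WT mESC library left, it is assumed to vary like the others. The mESC numbers showed no pairing (r = 0.00777 and -0.172). Gstm3 in MEFs, at 0 to 3 counts, is limited by depth.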
